A study of Mus musculus with 9 samples.

Results

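Transcripts of 10 genes, 9 for cytokines or a cytokine antagonist and 1 for a receptor, namely Il1a, Il1b, Il1rn, Il1r1, Il6, Il33, Lif, Csf1, Csf2 and Csf3, were followed in 3 strains of HC11 cells on Affymetrix mouse gene arrays. A gene was represented by the probeset annotated to its symbol alone, and by the one with the highest mean over the arrays if there were several. This gave 1 probeset each for 9 of the 10 genes, out of 34760 probesets in all, while Il1r1, the signalling receptor of IL1, has no such probeset in the annotation and was not analysed here. HC11 cells are a mammary epithelial line derived from BALB/c mice in mid-pregnancy. Each strain stably expressed a form of Mkl1, a transcriptional coactivator of SRF, that carried red fluorescent protein (RFP) at its C-terminus. HC11-mutB1 cells expressed Mkl1-RFP with alanines in place of 4 residues of the B1 domain, the site that interacts with SRF. HC11-ΔSAP cells expressed Mkl1-RFP without the SAP domain, and HC11-FL cells, the control, full length Mkl1-RFP. The constructs were transfected, selected and sorted for RFP, so that every strain still held its endogenous Mkl1, each construct was represented by a single sorted strain, and no strain with an empty vector was arrayed. All cultures were starved for 48 h in medium with 0.03% FCS and no epidermal growth factor, and RNA of 3 cultures per strain was hybridized, 1 per array.

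The IL1 agonists IL1 alpha and IL1 beta bind the receptor Il1r1, which pairs with the accessory chain Il1rap and signals through Myd88, Irak kinases and Traf6 to NF-kB. Il1rn is the receptor antagonist, which occupies the receptor without recruiting the accessory chain. IL6 and LIF share the signal transducer gp130, encoded by Il6st, and activate Jak kinases and Stat3, and in the mammary gland LIF is known for activating Stat3 at the onset of involution. CSF1 supports macrophages and is known for bringing them to the growing mammary ducts, CSF2 acts on macrophages and granulocytes, and CSF3 on neutrophils. IL33 is an alarmin that is kept in the nucleus until cells are damaged.

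Expression values are on the log2 scale, and a probeset was taken as expressed if its mean over the 9 arrays was at least 4, which held for 20286 probesets. Of the 9 measured genes, Il1a, Il1rn, Lif, Csf1 and Csf3 were expressed, each with a value of at least 4 on all 9 arrays. Il1b, Il6, Il33 and Csf2 lay below the minimum, with means of 3.95, 3.13, 3.11 and 3.43. Log2 fold changes (logFC) are those of the first strain named over the second. A difference was called at an adjusted p of at most 0.01 in an expressed probeset, at any fold. The study's own filters add a fold of at least 2, and this is written below as all 3 filters. Array medians lay between 4.53 and 4.60, and arrays correlated at r = 0.992 to 0.995 within and at 0.972 to 0.979 between strains over expressed probesets.

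The promoters of 4 of the 5 expressed genes, for all of which a difference is described below, are shown. Mkl1 can act through SRF, whose binding motif is the CArG box, and IL1 and IL6 family genes are known targets of NF-kB and AP-1. The study also describes a mode of Mkl1 that requires the SAP domain but not SRF. No motif of that mode was searched. The promoter sequences were taken from RefSeq, build GRCm38.p6, on the strand of the gene. They run from 250 bases before to 50 bases after the annotated start. The positions are chr2:24336610-24336909 on the plus strand for Il1rn (the most upstream of its 3 annotated starts), chr3:107760420-107760719 on the minus strand for Csf1, chr11:4257318-4257617 on the plus strand for Lif and chr2:129309923-129310222 on the minus strand for Il1a. Capitals mark matches to the AP-1 motif TGANTCA, the NF-kB motif or the TATA box TATAAA on either strand.
Il1rn: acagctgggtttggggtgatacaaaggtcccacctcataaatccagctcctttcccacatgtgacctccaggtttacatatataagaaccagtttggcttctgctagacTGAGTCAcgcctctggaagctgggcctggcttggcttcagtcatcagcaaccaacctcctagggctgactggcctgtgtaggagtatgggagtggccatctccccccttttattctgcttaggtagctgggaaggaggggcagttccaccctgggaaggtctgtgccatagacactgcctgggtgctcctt
Csf1: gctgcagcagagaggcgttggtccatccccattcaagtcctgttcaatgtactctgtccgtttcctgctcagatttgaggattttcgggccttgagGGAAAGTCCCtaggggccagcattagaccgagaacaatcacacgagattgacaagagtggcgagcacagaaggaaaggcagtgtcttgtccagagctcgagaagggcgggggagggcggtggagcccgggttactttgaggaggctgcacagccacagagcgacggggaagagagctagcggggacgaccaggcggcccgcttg
Lif: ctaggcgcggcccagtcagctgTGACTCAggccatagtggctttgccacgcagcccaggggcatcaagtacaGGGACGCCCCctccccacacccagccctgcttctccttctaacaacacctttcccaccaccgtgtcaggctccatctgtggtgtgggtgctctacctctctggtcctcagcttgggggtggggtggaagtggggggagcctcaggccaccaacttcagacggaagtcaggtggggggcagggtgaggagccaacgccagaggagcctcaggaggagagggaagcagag
Il1a: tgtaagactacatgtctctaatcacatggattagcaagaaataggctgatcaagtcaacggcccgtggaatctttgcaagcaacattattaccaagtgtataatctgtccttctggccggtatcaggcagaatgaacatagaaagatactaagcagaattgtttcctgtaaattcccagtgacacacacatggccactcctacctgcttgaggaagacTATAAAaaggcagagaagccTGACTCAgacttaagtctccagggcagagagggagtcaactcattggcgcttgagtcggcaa
The Il1rn window held 1 AP-1 match at positions -141 to -135 from the start, and the Csf1 window 1 NF-kB match at -154 to -145. Lif had an AP-1 match at -228 to -222 and an NF-kB match at -178 to -169, and Il1a an AP-1 match at -12 to -6 downstream of a TATA box at -32 to -27. The matches do not overlap each other. Windows were found for 9 of the 10 genes, 13 windows in all, and none for Csf3, the fifth expressed gene. A CArG box was in none of the 13 windows, against 1.63% of all 32851 mouse windows. AP-1 matches were in 4 of the 13, NF-kB matches in 4 and TATA boxes in 5. The shares of all windows were 7.81% for AP-1, 8.46% for NF-kB and 13.6% for the TATA box. The later starts of Il1rn had no AP-1 match. A further motif searched, that of TEAD factors (CATTCC, in 14.7% of all windows), was in none of the 4 windows printed and in 5 of the 13, among them a later start of Il1rn. These are matches of letters in a short window and do not show binding.

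Among the 5 expressed genes, those that differed from HC11-FL control cells were not the same in HC11-mutB1 and HC11-ΔSAP cells. Il1rn and Csf1 were lower in HC11-mutB1 cells, while HC11-ΔSAP cells had lower Il1a and Il1rn and higher Lif and Csf3. Between HC11-mutB1 and control cells 2 of the 5 were called lower and 0 higher, beside 8.32% of all expressed probesets called lower and 11.9% called higher. At an unadjusted p under 0.05 in limma there were 3 of the 5, beside 43% of expressed probesets. Only Il1rn passed all 3 filters, as 2.86% of expressed probesets did. Between HC11-ΔSAP and control cells 2 were called lower and 2 higher, beside 10.1% of expressed probesets lower and 11.9% higher, and 0 of the 5 passed all 3 filters, against 3.01% of expressed probesets. An unadjusted p under 0.05 in limma was found for all 5, beside 42.7% of expressed probesets. The median logFC of the 5 genes was 0.07 for HC11-mutB1 and -0.30 for HC11-ΔSAP cells, beside -0.02 and -0.01 over all expressed probesets. The HC11-FL arrays serve in both comparisons.

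**Figure D1:**
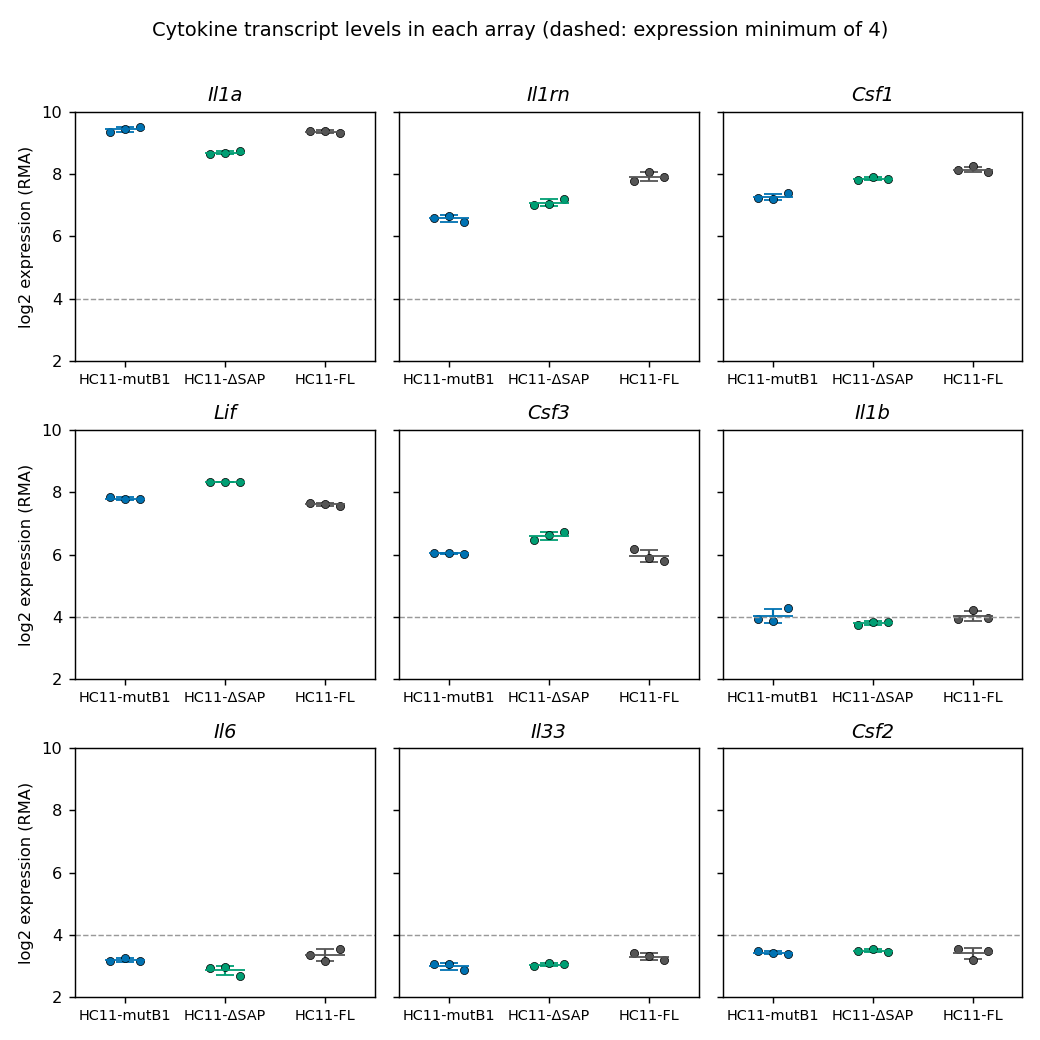
Log2 expression (RMA, vertical axis) of the 9 measured genes in each of the 3 arrays per strain, with points for arrays, long bars for means and short bars for 1 SD, and a dashed line at the expression minimum of 4. Il1rn and Csf1 were lowest in HC11-mutB1 and Il1a in HC11-ΔSAP cells, Lif and Csf3 were highest in HC11-ΔSAP cells, and the last 4 panels lie around or below the minimum.

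The IL1 antagonist showed the largest difference of the 9 genes. Il1rn (probeset 10469816) lay at 6.61, 6.66 and 6.47 in the HC11-mutB1 arrays, at 7.01, 7.06 and 7.21 in HC11-ΔSAP cells and at 7.80, 8.06 and 7.93 in HC11-FL control cells. The 3 strains did not overlap, and the values of both mutant strains were below those of the control. The level was 6.58 ± 0.10 in HC11-mutB1 and 7.93 ± 0.13 in HC11-FL control cells (mean ± SD, n = 3 each), a logFC of -1.35 (SE 0.09, adjusted p = 2.3e-05) or 2.55-fold lower. HC11-ΔSAP cells averaged 7.09 ± 0.10 (n = 3) and were 1.79-fold lower than the control (logFC -0.84, adjusted p = 0.00028), short of the 2-fold minimum. An exact permutation test (two-sided) gave p = 0.1 for both. With 3 arrays on either side no smaller p is possible, and 0.1 is also the value for every pair of strains below whose arrays do not overlap.

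Il1a, the agonist gene of this pair, had another pattern. Its probeset (10487588) gave 9.38, 9.45 and 9.51 in HC11-mutB1 arrays, 8.65, 8.70 and 8.74 in HC11-ΔSAP cells and 9.39, 9.41 and 9.34 in HC11-FL control cells. Values of HC11-mutB1 and control cells overlapped, and all HC11-ΔSAP arrays lay below them. The level of 8.70 ± 0.04 in HC11-ΔSAP cells was 1.60-fold lower than 9.38 ± 0.04 in the HC11-FL control (logFC -0.68, SE 0.05, adjusted p = 4.3e-05). For HC11-mutB1 cells, at 9.45 ± 0.07, the logFC was 0.07 with a 95% interval of -0.05 to 0.18 (adjusted p = 0.46).

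The other IL1 family members gave no call. Il1b (10487597), the second agonist gene, which lies next to Il1a on chromosome 2, measured 3.93, 3.85 and 4.29 in HC11-mutB1 arrays, 3.74, 3.83 and 3.84 in HC11-ΔSAP cells and 3.91, 4.22 and 3.94 in HC11-FL control cells, so only 2 arrays reached 4. Against the control its logFC was 0.00 in HC11-mutB1 cells (adjusted p = 1) and -0.22 in HC11-ΔSAP cells (adjusted p = 0.32). Il33 (10462442) lay at 3.06, 3.04 and 2.86 in HC11-mutB1, at 2.98, 3.08 and 3.04 in HC11-ΔSAP and at 3.41, 3.30 and 3.18 in HC11-FL control cells. The control arrays were the highest in this gene, but all values were under the minimum, and the adjusted p was 0.025 for HC11-mutB1 and 0.051 for HC11-ΔSAP cells.

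Of the IL6 family ligands, Lif was higher in HC11-ΔSAP cells. Lif (10373918) measured 7.84, 7.78 and 7.77 in HC11-mutB1 arrays, 8.34, 8.34 and 8.34 in HC11-ΔSAP cells and 7.67, 7.64 and 7.56 in HC11-FL control cells. The 3 values of HC11-ΔSAP cells differ only past the second decimal (SD 0.0036) and lie above all others. HC11-ΔSAP cells thus exceeded the control, at 7.62 ± 0.05, by 1.64-fold (logFC 0.72, SE 0.04, adjusted p = 1.7e-05). HC11-mutB1 cells, at 7.80 ± 0.04, also lay above all control arrays, with a logFC of 0.18 (95% interval 0.08 to 0.28) that was not called (adjusted p = 0.024).

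Il6 (10520452) itself was below the expression minimum in every array. It measured 3.14, 3.27 and 3.14 in HC11-mutB1 arrays, 2.92, 2.95 and 2.69 in HC11-ΔSAP cells and 3.36, 3.16 and 3.54 in HC11-FL control cells. The HC11-ΔSAP arrays were the lowest, with a logFC of -0.50 against the control (adjusted p = 0.013), and in HC11-mutB1 cells the value was -0.17 (adjusted p = 0.37). Replicates 1 and 3 of HC11-mutB1 cells hold the same deposited value here. Such repeated values occur in 45.2% of all probesets and, among the 9 genes, in Il6 and Csf2 only, and where they fall within a strain its spread may be too small.

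Among the colony stimulating factors, Csf1 was lower in HC11-mutB1 and Csf3 higher in HC11-ΔSAP cells. Csf1 (10501164), the main growth factor of macrophages, measured 7.25, 7.19 and 7.39 in HC11-mutB1 arrays, 7.80, 7.91 and 7.85 in HC11-ΔSAP cells and 8.13, 8.26 and 8.07 in HC11-FL control cells. The strains did not overlap and stood in this order. HC11-mutB1 cells, at 7.28 ± 0.10, were 1.84-fold lower than the control, at 8.15 ± 0.09 (logFC -0.88, SE 0.07, adjusted p = 6.7e-05). HC11-ΔSAP cells, at 7.86 ± 0.05, had a logFC of -0.30 (95% interval -0.46 to -0.14, adjusted p = 0.018) that was not called, and that passed, with an adjusted p = 0.0091, if expressed probesets alone were tested.

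Csf3 (10380999), which encodes the granulocyte factor, gave 6.03, 6.06 and 6.02 in HC11-mutB1 arrays, 6.45, 6.62 and 6.72 in HC11-ΔSAP cells and 6.18, 5.89 and 5.80 in HC11-FL control cells. All HC11-ΔSAP values lay above the others, and those of HC11-mutB1 cells fell within the control's range. HC11-ΔSAP cells averaged 6.60 ± 0.13 and HC11-FL control cells 5.95 ± 0.20, a logFC of 0.64 (SE 0.10, adjusted p = 0.0029) or 1.56-fold. This call depended on single arrays, with an adjusted p of 0.014 without HC11-FL replicate 2, 0.011 without HC11-FL replicate 3, 0.014 without HC11-ΔSAP replicate 2 and 0.013 without HC11-ΔSAP replicate 3. In HC11-mutB1 cells, at 6.04 ± 0.02, the logFC was 0.08 (95% interval -0.16 to 0.32, adjusted p = 0.68). Csf2 (10385912), at 3.46, 3.43 and 3.37 in HC11-mutB1, 3.46, 3.54 and 3.46 in HC11-ΔSAP and 3.54, 3.19 and 3.46 in HC11-FL control cells, was below the minimum with overlapping strains.

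Compared directly, the mutant strains differed in all 5 expressed genes. In HC11-ΔSAP versus HC11-mutB1 cells 1 of the 5 was called lower and 4 were called higher, beside 8.45% of expressed probesets lower and 7.25% higher, with a median of 0.54 in logFC for the 5 genes and 0.01 over all expressed probesets. None of the 5 passed all 3 filters, against 2.86% of expressed probesets. All 5 had an unadjusted p under 0.05 in limma, as did 37.7% of expressed probesets. Il1a was lower by 1.68-fold (logFC -0.75, adjusted p = 3e-05). Csf1 was 1.49-fold, Lif 1.45-fold, Csf3 1.47-fold and Il1rn 1.42-fold higher (adjusted p = 0.00077, 9.2e-05, 0.0078 and 0.0053). The calls of Il1a, Csf1 and Lif held when any array was left out, while that of Il1rn was lost in 7 and that of Csf3 in 6 of the 9 fits with an array left out (adjusted p up to 0.022 and 0.032).

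**Figure D2:**
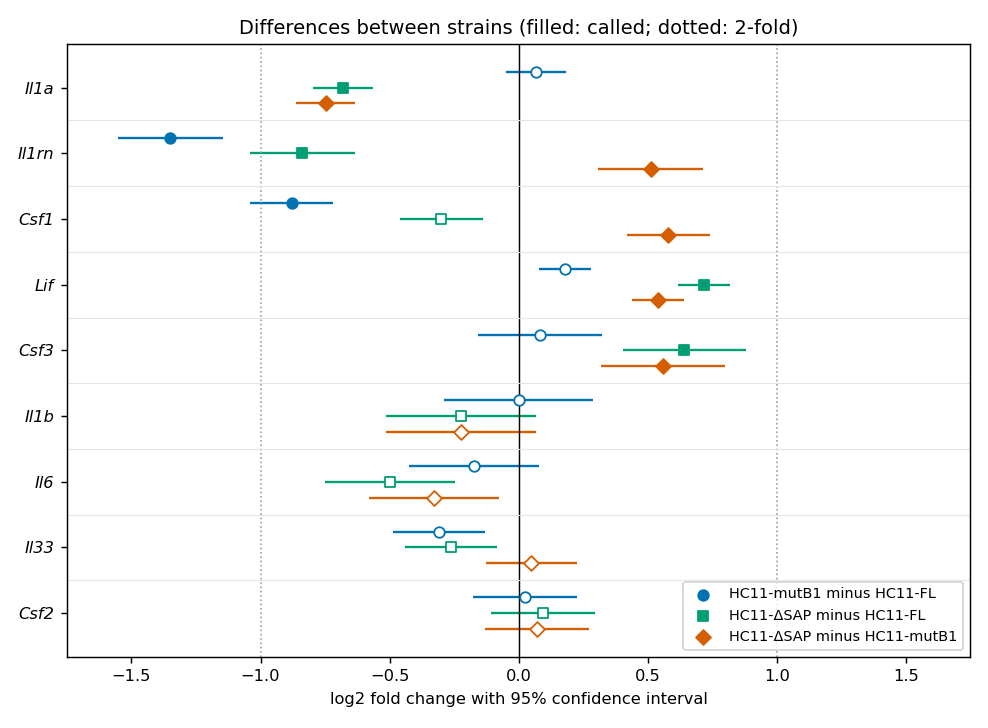
Log2 fold changes (logFC, horizontal axis) of the 9 measured genes with 95% confidence intervals for the 3 comparisons, filled where called, with dotted lines at 2-fold. Only Il1rn in HC11-mutB1 cells lies beyond 2-fold, at -1.35, and the direct comparison puts Il1a at -0.75 and the other 4 expressed genes between 0.51 and 0.58.

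The receptor chains showed a rise of the IL1 accessory chain in both mutant strains. Il1rap lay at 8.69, 8.69 and 8.77 in the HC11-mutB1 arrays, at 9.32, 9.45 and 9.42 in HC11-ΔSAP cells and at 8.12, 8.12 and 8.20 in HC11-FL control cells, with no overlap between strains. Its level was 1.49-fold higher in HC11-mutB1 and 2.38-fold higher in HC11-ΔSAP cells than in the control (adjusted p = 0.00014 and 2.2e-06), and HC11-ΔSAP cells exceeded HC11-mutB1 cells 1.60-fold (adjusted p = 7e-05). Il6st, the gp130 chain, was lower in both, with 10.28, 10.27 and 10.31 in HC11-mutB1, 10.29, 10.25 and 10.34 in HC11-ΔSAP and 10.73, 10.78 and 10.73 in HC11-FL control cells (1.38-fold and 1.37-fold, adjusted p = 0.00014 each). The log2 difference of Il6st between HC11-ΔSAP and HC11-mutB1 cells was 0.01 (adjusted p = 0.96).

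Of 10 measured receptor genes of the list, 7 were expressed. Calls against the control were 2 lower and 1 higher for HC11-mutB1 and 1 in each direction for HC11-ΔSAP cells, while the direct comparison gave 0 lower and 2 higher. Of all expressed probesets 8.32% were called lower and 11.9% higher for HC11-mutB1, 10.1% and 11.9% for HC11-ΔSAP cells, and 8.45% and 7.25% directly. Csf2ra, the ligand-binding chain for CSF2, was 1.40-fold lower in HC11-mutB1 cells (5.05 ± 0.08, against 5.54 ± 0.09 in HC11-FL control cells, adjusted p = 0.0043), with -0.21 on the log2 scale in HC11-ΔSAP cells (adjusted p = 0.14). Il6ra, the IL6-binding chain, was called only between the mutants, at 7.30 ± 0.04 in HC11-ΔSAP and 7.02 ± 0.03 in HC11-mutB1 cells (adjusted p = 0.0052). Lifr, the chain that binds LIF, had a logFC of -0.04 for HC11-mutB1 and 0.27 for HC11-ΔSAP cells, and Osmr, the oncostatin M chain, of 0.06 and -0.11, with no call. Csf1r, the CSF1 receptor, averaged 4.86 in HC11-mutB1, 4.57 in HC11-ΔSAP and 4.75 in HC11-FL control cells, with no call. The decoy receptor Il1r2, the shared beta chain Csf2rb and the CSF3 receptor Csf3r were below the minimum, with means of 3.36, 3.48 and 3.15, and Il1rl1, the IL33 receptor, was not analysed here.

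Related ligands of the same families moved in both directions. Of 13 measured, 9 were expressed. Against HC11-FL there were 2 lower and 1 higher calls for HC11-mutB1, and 1 lower and 2 higher for HC11-ΔSAP cells. The direct comparison called 0 as lower and 1 as higher. These counts stand beside the same shares of all expressed probesets as those of the receptors. Il36a, an IL1 family agonist annotated as Il1f6, measured 4.29, 4.76 and 4.59 in HC11-mutB1, 5.75, 5.86 and 5.73 in HC11-ΔSAP and 5.58, 5.58 and 5.79 in HC11-FL control cells. The HC11-mutB1 arrays stood apart below the rest, 2.15-fold lower than the control and with HC11-ΔSAP cells 2.35-fold above them (adjusted p = 0.00035 and 0.00023), while the value of HC11-ΔSAP against control cells was 0.13 (adjusted p = 0.59). Il34, the second ligand of the CSF1 receptor, was higher in both mutant strains, at 8.55 ± 0.04 in HC11-mutB1, 8.72 ± 0.09 in HC11-ΔSAP and 8.04 ± 0.10 in HC11-FL control cells (1.43-fold and 1.60-fold, adjusted p = 0.00098 and 0.00019). Kitl, the ligand of the related receptor Kit, was 2.32-fold lower in HC11-mutB1 and 2.71-fold lower in HC11-ΔSAP cells (5.41 ± 0.11 and 5.19 ± 0.10, against 6.63 ± 0.17 in HC11-FL control cells, adjusted p = 7.5e-05 and 2.9e-05). Ctf1, an IL6 family cytokine, was 1.81-fold higher in HC11-ΔSAP cells (adjusted p = 0.0006).

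**Figure D3:**
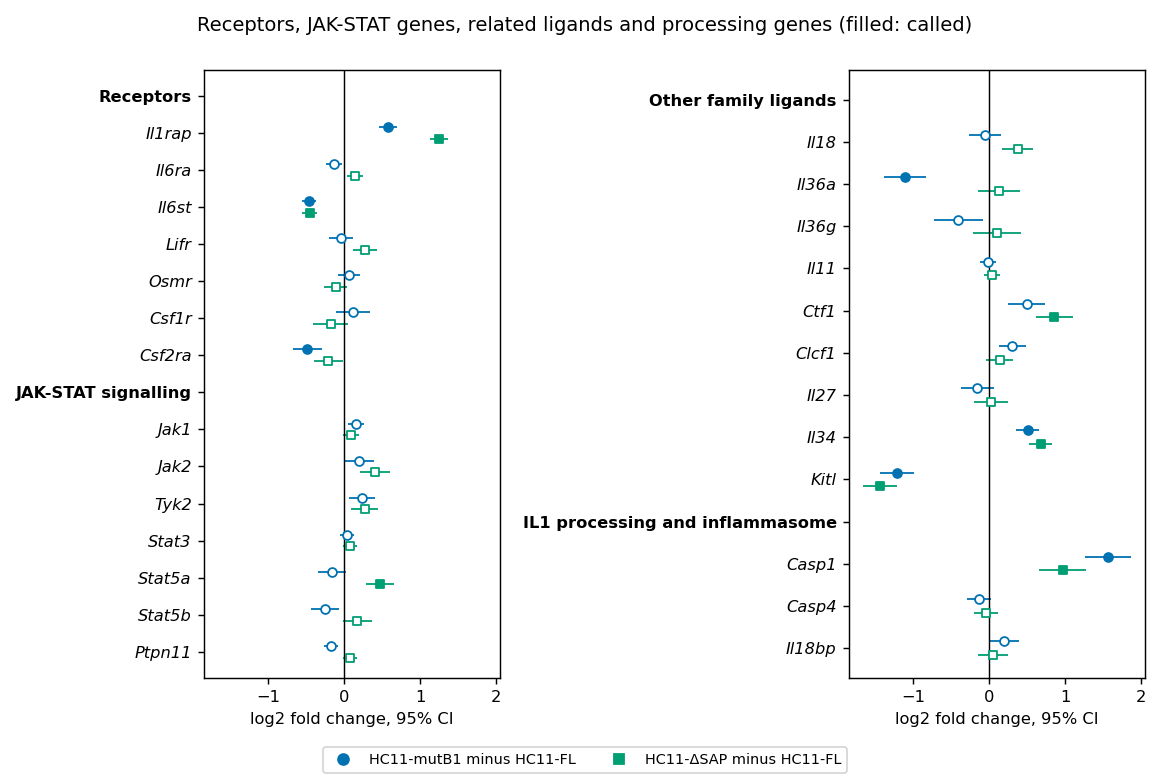
Log2 fold changes (logFC, horizontal axes) against HC11-FL control cells with 95% confidence intervals for expressed receptor, JAK-STAT, related ligand and IL1 processing genes, filled where called. Il1rap lies at 0.58 for HC11-mutB1 and 1.25 for HC11-ΔSAP cells, Il36a is lower in HC11-mutB1 cells, and Kitl is lower and Il34 and Casp1 are higher in both.

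Of the enzymes that process IL1 family cytokines, Casp1, whose product cleaves the precursors of IL1 beta and IL18, was higher in both mutant strains. Its values were 8.45, 8.58 and 8.60 in HC11-mutB1, 7.79, 8.02 and 8.03 in HC11-ΔSAP and 6.72, 7.26 and 6.96 in HC11-FL control cells, 2.96-fold and 1.96-fold above the control (adjusted p = 0.0001 and 0.0012). Only 3 of the 8 listed genes were expressed, and Casp1 was the only one of these 3 called in either comparison with the control. Of all expressed probesets 11.9% were called higher in each comparison, and 8.32% for HC11-mutB1 and 10.1% for HC11-ΔSAP cells were called lower.

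Of 14 measured genes of the IL1 and NF-kB route, all expressed, HC11-mutB1 cells had 1 called lower and 1 higher, and HC11-ΔSAP cells 0 lower and 2 higher. Of all expressed probesets 8.32% were called lower and 11.9% higher for HC11-mutB1, and 10.1% and 11.9% for HC11-ΔSAP cells. Map3k7, the kinase TAK1, was 1.42-fold and 1.53-fold higher (adjusted p = 0.00031 and 0.0001), and Irak2 was 1.74-fold higher in HC11-ΔSAP cells (7.50 ± 0.08, against 6.70 ± 0.16 in HC11-FL control cells, adjusted p = 0.00021). Ikbkb, which encodes a subunit of the IκB kinase complex, was 1.17-fold lower in HC11-mutB1 cells (adjusted p = 0.0031). In the direct comparison HC11-ΔSAP cells had more Irak2 and less Traf6 and Tab3 transcript than HC11-mutB1 cells (logFC 0.41, -0.41 and -0.35, adjusted p = 0.0092, 0.0065 and 0.0046). This made 2 of the 14 called lower and 1 higher, beside 8.45% of expressed probesets lower and 7.25% higher. Of 7 measured JAK-STAT genes, HC11-mutB1 cells had 0 called and HC11-ΔSAP cells 1 against the control, beside the shares of those comparisons above. At an unadjusted p under 0.05 in limma there were 5 and 3, beside 43% and 42.7% of expressed probesets. The gene called was Stat5a, a mediator of prolactin signals in the gland, at 7.83 ± 0.16 in HC11-ΔSAP and 7.36 ± 0.04 in HC11-FL control cells (adjusted p = 0.0039). HC11-ΔSAP cells exceeded HC11-mutB1 cells in Stat5a, Stat5b and the phosphatase gene Ptpn11 (logFC 0.63, 0.42 and 0.26, adjusted p = 0.0011, 0.0087 and 0.0029). The direct comparison thus called 0 of the 7 lower and 3 higher, beside 8.45% and 7.25% of expressed probesets.

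Of 10 expressed genes listed as feedback inhibitors, 3 were called higher and 0 lower in HC11-mutB1 cells against the control. In HC11-ΔSAP cells 4 were called higher and 0 lower. Of all expressed probesets 11.9% were called higher in each comparison, and 8.32% and 10.1% lower. The counts include Nfkbiz, and whether the product of a listed gene inhibits in these cells was not tested. Nfkbiz, a nuclear IκB protein, was 1.26-fold and 1.98-fold higher (8.79 ± 0.04 in HC11-mutB1, 9.44 ± 0.08 in HC11-ΔSAP and 8.46 ± 0.07 in HC11-FL control cells, adjusted p = 0.0049 and 1.5e-05), and Tnfaip3, the ubiquitin-editing enzyme A20, 1.22-fold and 1.41-fold (adjusted p = 0.0042 and 0.00022). Nfkbia, the classical NF-kB inhibitor, exceeded the control 1.37-fold in HC11-mutB1 cells (adjusted p = 0.00094), with 0.09 on the log2 scale in HC11-ΔSAP cells (adjusted p = 0.38). Zc3h12a, a nuclease that degrades Il6 mRNA among others, and Cish, an inhibitor of Stat5 signals, were called only in HC11-ΔSAP cells (1.28-fold and 1.27-fold higher, adjusted p = 0.00038 and 0.0076), with logFC values of 0.00 and -0.10 in HC11-mutB1 cells. All 3 HC11-FL arrays hold the same deposited value of Cish (4.63), so that its spread may be too small. Set against HC11-mutB1 cells, HC11-ΔSAP cells had higher Nfkbiz, Zc3h12a and Cish (logFC 0.65, 0.35 and 0.45) and lower Nfkbia and Pias3, a Stat3 inhibitor (logFC -0.36 and -0.37), all called. This made 3 of the 10 called higher and 2 lower, beside 7.25% and 8.45% of expressed probesets in the direct comparison.

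Of 12 genes known to respond to IL1 and IL6, all expressed, HC11-ΔSAP cells had 6 called higher and 1 lower against the control, with a median logFC of 0.18, beside 11.9% of expressed probesets higher and 10.1% lower. In HC11-mutB1 cells 3 of the 12 were called lower and 0 higher, with a median of -0.12, beside 8.32% lower and 11.9% higher. The direct comparison with HC11-mutB1 cells called 0 as lower and 7 as higher, with a median of 0.44, beside 8.45% and 7.25%. The 7 include Saa3 and Lcn2, which were not higher in HC11-ΔSAP than in control cells (logFC -0.33 and -0.11). Both were called lower in HC11-mutB1 than in control cells. Like the other lists, the 12 genes were chosen with earlier results of these data known, which limits what the shares beside them can show. Cxcl1, a neutrophil chemokine, measured 9.81, 9.78 and 9.65 in HC11-mutB1, 11.19, 11.30 and 11.30 in HC11-ΔSAP and 10.03, 9.95 and 9.95 in HC11-FL control cells. HC11-ΔSAP cells had 2.44-fold more than control cells (adjusted p = 3.6e-06), and the related Cxcl2 1.72-fold, the transcription factor gene Cebpd 1.65-fold and Ptgs2, which encodes the prostaglandin synthase COX-2, 1.53-fold (adjusted p = 0.00031, 0.00027 and 5.6e-05). Saa3, an acute phase protein, showed the largest change of the list, with 9.19, 9.38 and 9.40 in HC11-mutB1, 12.27, 12.39 and 12.39 in HC11-ΔSAP and 12.64, 12.76 and 12.63 in HC11-FL control cells. It was 10.2-fold lower in HC11-mutB1 cells (adjusted p = 1e-07), and the logFC in HC11-ΔSAP cells was -0.33 (adjusted p = 0.014). Lcn2, which encodes the siderophore-binding lipocalin, and Ccl2, a monocyte chemokine, were 1.59-fold and 1.50-fold lower in HC11-mutB1 cells (adjusted p = 1.8e-05 and 0.0076). The gene called lower in HC11-ΔSAP than in control cells was Pim1 (1.36-fold, adjusted p = 0.00083).

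**Figure D4:**
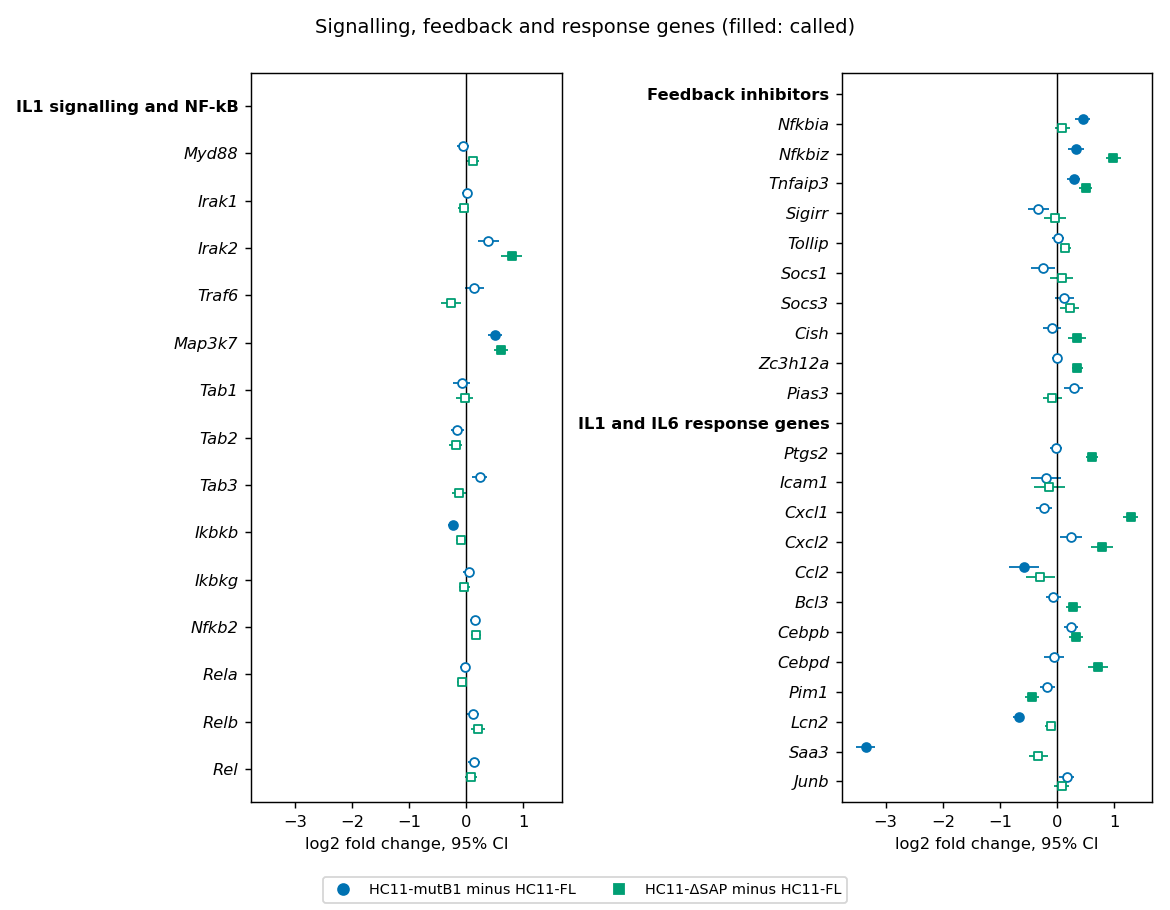
Log2 fold changes (logFC, horizontal axes) against HC11-FL control cells with 95% confidence intervals for IL1 signalling, feedback and response genes, filled where called. Genes listed as feedback inhibitors lie above 0 where called, Cxcl1 lies at 1.29 in HC11-ΔSAP cells, and Saa3 at -3.35 in HC11-mutB1 cells.

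The cell type markers and the construct were measured beside these genes. All 6 epithelial markers were expressed, with a mean log2 level over the list of 10.30 to 10.33 in HC11-mutB1, 9.61 to 9.65 in HC11-ΔSAP and 10.12 to 10.17 in HC11-FL control cells, but its members were called in both directions. In HC11-mutB1 cells Krt5, Krt14 and Epcam were higher (logFC 1.15, 0.59 and 0.54) and Krt8 and Krt18 lower (-0.72 and -0.65), and in HC11-ΔSAP cells Epcam and Cdh1 were higher (0.42 and 0.37) and Krt5, Krt18, Krt8 and Krt14 lower (-1.90, -1.36, -0.32 and -0.27). Leukocytes express and answer many of the cytokines, and 3 of their 8 markers were expressed. The common leukocyte gene Ptprc was below 4 on all arrays, at 3.39 ± 0.17 in HC11-mutB1, 3.54 ± 0.04 in HC11-ΔSAP and 3.55 ± 0.05 in HC11-FL control cells, while Cd14, a coreceptor for bacterial lipopolysaccharide, and Cd68, a lysosomal protein, were higher in HC11-ΔSAP than in control cells (logFC 1.50 and 0.45). In HC11-mutB1 cells Cd14 was higher and Cd68 lower (logFC 0.58 and -0.34). The T cell gene Cd3e, the remaining expressed marker of this list, had a mean of 4.70 and was not called in any comparison. The mean level of the leukocyte list was 4.44 to 4.52 in HC11-mutB1, 4.74 to 4.77 in HC11-ΔSAP and 4.47 to 4.62 in HC11-FL control cells. All 7 fibroblast markers were above the minimum, with 5.65 to 5.77 in HC11-mutB1, 5.997 to 6.02 in HC11-ΔSAP and 5.85 to 6.004 in HC11-FL control cells, and 0 of 4 endothelial markers reached it. Fibroblast markers were also called in both directions, with Pdgfra higher and Pdgfrb and Dcn lower in HC11-mutB1 cells (logFC 0.51, -0.87 and -0.48), and Dcn higher and Pdgfra and Pdgfrb lower in HC11-ΔSAP cells (1.81, -0.42 and -0.38). The Mkl1 probeset, which does not separate construct from endogenous transcript, lay at 9.83 ± 0.07 in HC11-mutB1, 9.47 ± 0.07 in HC11-ΔSAP and 9.95 ± 0.11 in HC11-FL control cells (adjusted p = 0.31 and 0.0018 against the control). The part of these levels in the cytokine differences was not tested.

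Il1rn was the only gene of the 9 that passed all 3 filters, and the genes with the most similar profile over the 9 arrays were Ftsj3 (Pearson r = 0.993), Eml4 (0.991) and Mzt1 (0.991) among 14280 expressed probesets of 1 symbol. For HC11-mutB1 cells their logFC values were -0.57, -0.78 and -0.57, and for HC11-ΔSAP cells -0.35, -0.51 and -0.34. The 9 arrays form 3 strains, so that these values mainly compare 3 means.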

How the data were processed

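RNA of triplicate cultures of HC11-mutB1, HC11-ΔSAP and HC11-FL cells was hybridized to Affymetrix mouse gene arrays. The authors deposited log2 values of 34760 probesets, made by RMA, that is background correction, quantile normalization over all arrays and median polish. R 2.10.0 and affy are named in the submitters' notes on processing, and the genome build of the array is not given in the sources used here. The number of arrays limits the precision.

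Genes were named only through the 21640 probesets with 1 gene symbol, not through 1321 with several and 11799 with none listed, while all probesets entered the fit, the adjustment and the shares of expressed probesets. Differences were tested with limma 3.58.1 (lmFit, eBayes) in R 4.3.3, with 1 mean per strain over all 9 arrays and Benjamini-Hochberg adjustment over all probesets. Lists are described by counts and medians without a set test. Each strain was grown in triplicate, so p-values measure the spread between cultures of 1 strain per construct, not between independently made strains. The cytokines and the 13 gene lists were chosen with earlier results of these data known. Named were all cytokines and listed receptors, up to 4 called members of a list by fold per comparison, and the 3 closest profiles of a cytokine that passed all 3 filters. Pim1 and Cd3e were named in addition. Genes without a usable probeset (6, Il1r1 among them) were not analysed. Alternatives changed the arrays fitted, the block, scaling, filters, prior and thresholds.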

Additional observations from a re-analysis of the deposited data

Results flagged for a closer look

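The effects of the 2 Mkl1 mutants relative to HC11-FL control cells differed in 5 genes, tested directly in limma as HC11-ΔSAP minus HC11-mutB1. The difference was -0.75 for Il1a on the log2 scale (adjusted p = 3e-05), 0.54 for Lif (adjusted p = 9.2e-05) and 0.58 for Csf1 (adjusted p = 0.00077). It was 0.51 for Il1rn (adjusted p = 0.0053) and 0.56 for Csf3 (adjusted p = 0.0078), and both lost the call in most fits with an array left out.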

How the results depend on the processing

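Of 420 alternative fits of single cytokines, 385 kept the direction and the side of the threshold. A call was lost in 22, the sign changed in 7, and 6 passed their p threshold where the fit reported had not. Many of the fits left the logFC as it was, among them those with a block, another prior or another threshold. Their direction could not change. The mean of all probesets of a gene repeated the reported fit, since each of the 9 genes has 1 probeset. Of the 6 that passed, 3 are in Il6 and Il33, which lie below the expression minimum and were not called. Il33 and Lif for HC11-mutB1 and Il6 and Csf1 for HC11-ΔSAP cells passed a threshold raised to 0.05. Their adjusted p was unchanged there. At 0.01, Csf1 in HC11-ΔSAP cells passed with expressed probesets alone (adjusted p = 0.0091), and Il6 without HC11-FL replicate 2. The sign changed only in genes below the expression minimum. With each array left out in turn, the logFC of Il1b in HC11-mutB1 against HC11-FL cells ranged from -0.13 to 0.097, with a changed sign without HC11-FL replicate 2, HC11-mutB1 replicate 1 or replicate 2. That of Csf2 ranged from -0.080 to 0.093 for HC11-mutB1 and from -0.011 to 0.16 for HC11-ΔSAP cells against the control, with a changed sign without HC11-FL replicate 2, and was -0.021 for HC11-mutB1 cells with arrays centred on their medians. Il33 in HC11-ΔSAP against HC11-mutB1 cells ranged from -0.013 to 0.085, with a changed sign without HC11-mutB1 replicate 3. The cause was not tested. The number of cytokines that passed all 3 filters, taken again without the fold minimum, was 2 instead of 1 for HC11-mutB1 and 4 instead of 0 for HC11-ΔSAP cells, each against HC11-FL control cells, and 5 instead of 0 in the direct comparison. With an array left out, the number called at any fold was 2 in every fit for HC11-mutB1 and 3 to 4 for HC11-ΔSAP cells against the control. It was 3 to 5 directly, with 3 without any 1 of the HC11-mutB1 replicates or without HC11-ΔSAP replicate 2 or 3. Same-numbered cultures deviated from their strain means with r = -0.11 to 0.26, so the replicate numbers were not taken as pairs. With the replicate number as a block the direct count was 3 instead of 5, without Il1rn and Csf3, and the adjusted p of Csf3 in HC11-ΔSAP against HC11-FL cells was 0.014. In the 6 arrays of the strains compared, the Csf3 call against the control (adjusted p = 0.018) and the direct Il1rn call were lost. Without HC11-FL replicate 2, Il6 in HC11-ΔSAP cells had an adjusted p of 0.0069 at a level below the expression minimum.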

Other observations

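The genes around these cytokines on the chromosomes were looked up in the RefSeq order, and those given here were named after their values were seen. Il1rn closes a cluster of IL1 family genes on chromosome 2. In HC11-mutB1 cells Il36a (Il1f6), of this cluster, had a logFC of -1.10 (adjusted p = 0.00035), Il36g (Il1f9) of -0.40 (adjusted p = 0.087) and Il1rn of -1.35, while Psd4, which follows Il1rn on its other side, had 0.66 (adjusted p = 0.00043). In HC11-ΔSAP cells the values were 0.13 for Il36a, 0.11 for Il36g, -0.84 for Il1rn and 0.74 for Psd4 (adjusted p = 0.00021). Il36g lay near the expression minimum, with a mean of 4.08, and was not called. Il36b (Il1f8), Il36rn (Il1f5) and Il1f10, also of this cluster, were below the minimum. Their logFC values in HC11-mutB1 cells were -0.06, -0.26 and -0.11.

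Around Il1a and Il1b, Ckap2l, which flanks Il1a, had a logFC of 1.02 for HC11-mutB1 and -0.27 for HC11-ΔSAP cells (adjusted p = 4.5e-06 and 0.0055). Sirpa, which encodes a receptor for the CD47 protein, lies within 3 genes of Il1a in this order and was higher in both strains (logFC 2.53 and 4.14, adjusted p = 1e-07 and 4.2e-08). P4ha2, a prolyl hydroxylase gene of collagen synthesis next to Csf2, was lower in both (-2.00 and -0.83, adjusted p = 7.8e-08 and 4.7e-06), while Csf2 was below the expression minimum. All of these values are against HC11-FL control cells, whose arrays the comparisons share.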
